A study of Mus musculus with 8 samples.

Results

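Genes of the blood vessel wall were compared between dorsal and ventral medial entorhinal cortex (MEC). The set holds 38 genes, chosen by name as markers of endothelial and mural cells, out of the 38553 genes in the expression table. It comprises 20 endothelial genes, 8 transporters and carriers of the blood-brain barrier, 5 pericyte genes, 3 smooth muscle genes and 2 other mural genes, Notch3 and Anpep. All 38 matched a gene in the table, and none was at 0 in any library.

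Expression was measured by RNA-Seq in 4 dorsal and 4 ventral libraries from 13 male C57BL/6JolaHsd mice aged 8 weeks, with no treatment or allele that sets the groups apart. From each mouse the right MEC was taken as a sagittal slice of 400 µm, and its dorsal and ventral regions were dissected. Tissue of 3 to 4 mice was pooled for each library. Libraries were made from 120 ng of RNA with integrity numbers from 7.1 to 8.5, and each held between 10780902 and 15359782 fragments assigned to genes. The tissue is a bulk dissection, so that vessels are a minority of the RNA, a lower value can mean fewer vascular cells or less RNA per cell, and those readings cannot be told apart.

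The region of each library rests on values and not on labels. Of the 8 column headings in the expression table, 4 name a region other than the one used here, whereas the means of the libraries as grouped here equalled the authors' dorsal and ventral means within 0.1% for 14983 and 14980 of 14989 genes with enough alignments. Under the regions named by the headings, limma called 1 gene in the whole table higher in dorsal and 0 higher in ventral MEC, so that each call by limma named here, of members and of other genes, is lost under that assignment. The numbers 1 to 4 within a region only name a library, and which group of mice each library comes from is not given, so that no library was paired with another.

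Endothelial cells line brain capillaries and are joined by tight junctions, which forces nutrients, hormones and drugs to pass through transporters in the endothelial membrane. Pericytes sit on the outer face of capillaries within a shared basement membrane and depend on PDGF from the endothelium, while contractile smooth muscle cells wrap arterioles and arteries. VEGF and angiopoietin receptors on the endothelium control its growth and quiescence, and vessels at the surface of the cortex lie among fibroblasts of the leptomeninges.

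Promoter sequences are shown for Vtn and Eng, the members with the largest ratios between regions among those with no overlap between regions. Each runs from 250 bases before to 50 bases after the RefSeq transcription start (build GRCm38.p6), 5′ to 3′ on the plus strand. The Vtn promoter lies at chr11:78498870-78499169, and its capitals mark 2 overlapping matches to the TATA-like letters TATAAA, one on each strand. The Eng promoter lies at chr2:32646345-32646644, and its capitals mark 2 matches to the ETS-like letters AGGAAG, also one on each strand.
Vtn: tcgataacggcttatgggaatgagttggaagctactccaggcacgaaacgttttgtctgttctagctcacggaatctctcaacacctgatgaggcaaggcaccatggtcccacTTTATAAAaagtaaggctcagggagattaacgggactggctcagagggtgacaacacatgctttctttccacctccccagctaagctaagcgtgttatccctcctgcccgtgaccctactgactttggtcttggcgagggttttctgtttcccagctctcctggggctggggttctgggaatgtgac
Eng: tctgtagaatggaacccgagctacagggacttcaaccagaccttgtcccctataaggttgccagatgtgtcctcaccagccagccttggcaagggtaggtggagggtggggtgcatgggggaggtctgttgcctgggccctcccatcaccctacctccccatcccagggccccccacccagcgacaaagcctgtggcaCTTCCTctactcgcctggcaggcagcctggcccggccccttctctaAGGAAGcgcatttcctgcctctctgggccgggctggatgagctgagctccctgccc
The Vtn matches begin 137 and 135 bases before the start and the Eng matches 52 and 6 bases before it. RefSeq gave 32 promoters for 26 of the 38 members. Of these, 16 held AGGAAG on either strand, against 35.4% of all 32851 promoters of the same length. The GC box letters GGGCGG were found in 14 and TATAAA in 8, against 35.7% and 13.6% of all promoters. A match describes letters only, and no binding or start site was measured.

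The level of a gene is given as FPKM, a fragment number divided by exon length and by library size. Of the 38 members, 30 were tested, as they averaged 1 FPKM or more and had enough alignments, and 9 of them averaged 10 or more. The 8 that were not tested are listed by class below. Basigin (Bsg), a glycoprotein that escorts monocarboxylate transporters to the membrane and is also made by other brain cells, had the highest level of all, at 144 ± 6.94 FPKM in dorsal and 145 ± 6.24 in ventral libraries (mean ± SD, n = 4 each, as for all such values here). Markers that define brain endothelium and pericytes were thus present in every library, although Cldn5, the main claudin of the barrier, lay between 0.681 and 1.67 FPKM and rested on only 14 to 41 fragments per library.

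**Figure D1:**
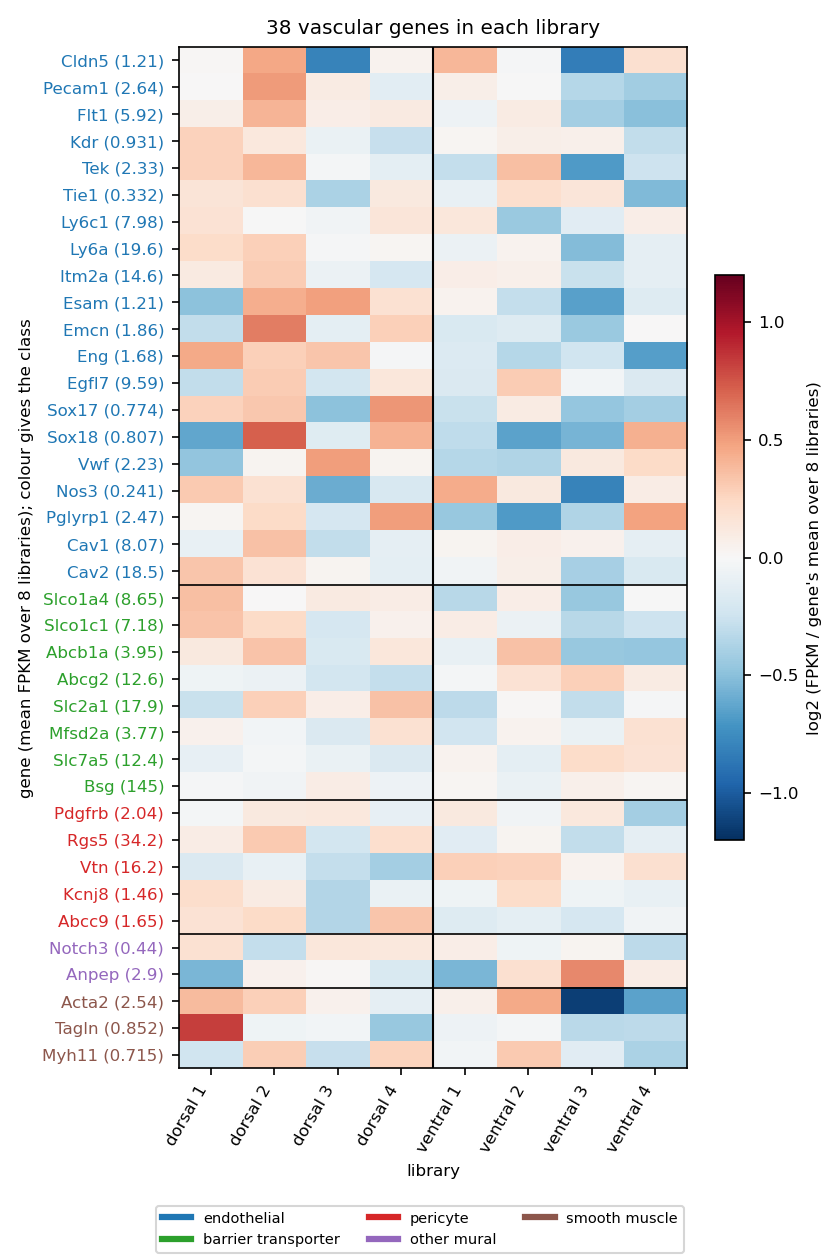
FPKM of the 38 members in the 8 libraries, as log2 of the value over the gene's own mean (colour), with that mean in brackets and the class given by the colour of the name. The ventral 3 column is blue for most endothelial genes and dorsal 2 is red for most, while Vtn is the gene that is red in all 4 ventral and blue in all 4 dorsal libraries.

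Across the tested members, 1 gene passed the test between regions, and it was higher in ventral MEC. This was vitronectin (Vtn), an adhesive glycoprotein of plasma and matrix that pericytes make in the brain. Of the 30 tested members, 0 were called higher in dorsal and 1 in ventral libraries, where a call needs a limma p adjusted by Benjamini-Hochberg over all 13674 tested genes under 0.05 and mean FPKM that differ by 20% or more on the ratio scale. Over all tested genes 2.15% were called higher in dorsal and 1.45% higher in ventral MEC, so that the count among members is near the background. At an unadjusted p under 0.05, 4 members were lower and 2 were higher in ventral libraries, against 8.71% and 7.31% of all genes.

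Most members had lower means in ventral MEC without passing the test. The log2 ratio of ventral to dorsal mean FPKM was below 0 for 22 of 30 tested members, compared with 51.2% of all tested genes, and its median was -0.24 compared with -0.005. A ratio past that 20% limit was found downward in 11 members and upward in 3, against 10.5% and 9.26% of all genes. The members share cells and libraries and are not independent, so that these counts are a description. Of the 8 untested members, 7 were also below 0. The direction rests on the assignment of libraries, since under the regions named by the headings 8 of the 30 tested members were below 0, with a median of 0.10, compared with 47.9% of all genes.

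**Figure D2:**
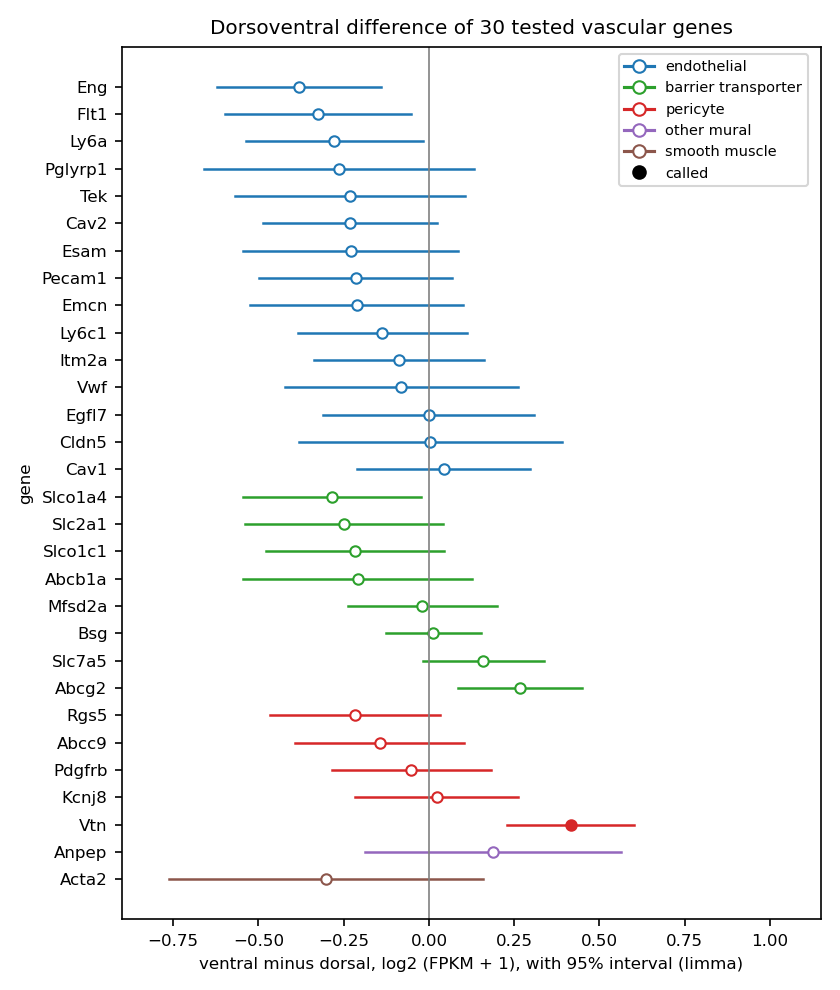
Difference between ventral and dorsal libraries of the 30 tested members on the log2(FPKM + 1) scale (x axis), with 95% intervals from limma, coloured by class (points, filled where called). Vtn at 0.42 is the one filled point, and most endothelial points lie left of 0 with intervals that cross it.

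Vtn (chr11:78499091-78502324, plus strand, GRCm38, with 4 transcripts and no exon shared with another gene) stood at 14.3, 15.3, 13.3 and 12.2 FPKM in dorsal libraries 1 to 4 and at 19.8, 19.7, 16.7 and 18.5 in ventral libraries 1 to 4. The lowest ventral library lay above the highest dorsal one. Means were 13.8 ± 1.33 and 18.7 ± 1.46 FPKM, a log2 ratio of 0.44, and the limma difference on the log2(FPKM + 1) scale was 0.42 (SE 0.08, 95% interval 0.23 to 0.60, adjusted p = 0.0229). The call was lost in 5 of the 8 fits that left out 1 library (without dorsal 3, dorsal 4, ventral 1, ventral 2 or ventral 4, adjusted p from 0.0509 to 0.0818), while the log2 ratio stayed between 0.39 and 0.49. Under the regions named by the headings the log2 ratio of Vtn was 0.03 (limma adjusted p = 0.994).

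Part of the Vtn difference in FPKM was not in the number of fragments. FPKM depends on the exon length given to a gene, which varies between libraries when fragments are assigned to transcripts of different length. In CPM, the fragments of a gene scaled to library size alone, Vtn had 28.2, 27.4, 22.4 and 19.9 CPM in dorsal and 31.5, 32.6, 30.1 and 28.3 in ventral libraries, so that the lowest ventral library, at 28.29, barely exceeded the highest dorsal one, at 28.25. The log2 ratio of fragments was 0.29 (edgeR quasi-likelihood adjusted p = 0.0799, DESeq2 adjusted p = 0.0744), and the remaining -0.15 was a shorter apparent length, the ratio of fragments to FPKM, in ventral libraries. This length differed 1.29-fold between the highest and lowest library for Vtn, and 14.3% of 12448 genes with at least 20 fragments in every library had a spread at least as wide.

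Vtn also parted from the other pericyte genes. Rgs5, a regulator of G protein signalling that is abundant in pericytes, was the most highly expressed of the 5, at 36.4, 42.6, 29.3 and 39.4 FPKM in dorsal and 31.1, 35.1, 27.9 and 31.7 in ventral libraries. These groups overlapped, with a log2 ratio of -0.23. The limma difference on the log2(FPKM + 1) scale was -0.22 (95% interval -0.47 to 0.03, adjusted p = 0.389). The level of Vtn relative to Rgs5 in the same library was 0.394, 0.358, 0.454 and 0.309 in dorsal and 0.639, 0.562, 0.597 and 0.583 in ventral libraries, with no overlap. Vtn was compared in this way after its values were seen, and the ratio was not tested.

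The 3 remaining pericyte genes, which encode the PDGF receptor beta and the subunits of a potassium channel, were not called. Pdgfrb had 2.09 ± 0.157 FPKM in dorsal and 1.99 ± 0.322 in ventral libraries, a log2 ratio of -0.07. Kcnj8, the pore subunit of the ATP-sensitive potassium channel, had a log2 ratio of 0.03, and Abcc9, its sulfonylurea receptor subunit, one of -0.25. The median over the 5 pericyte genes was -0.07.

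**Figure D3:**
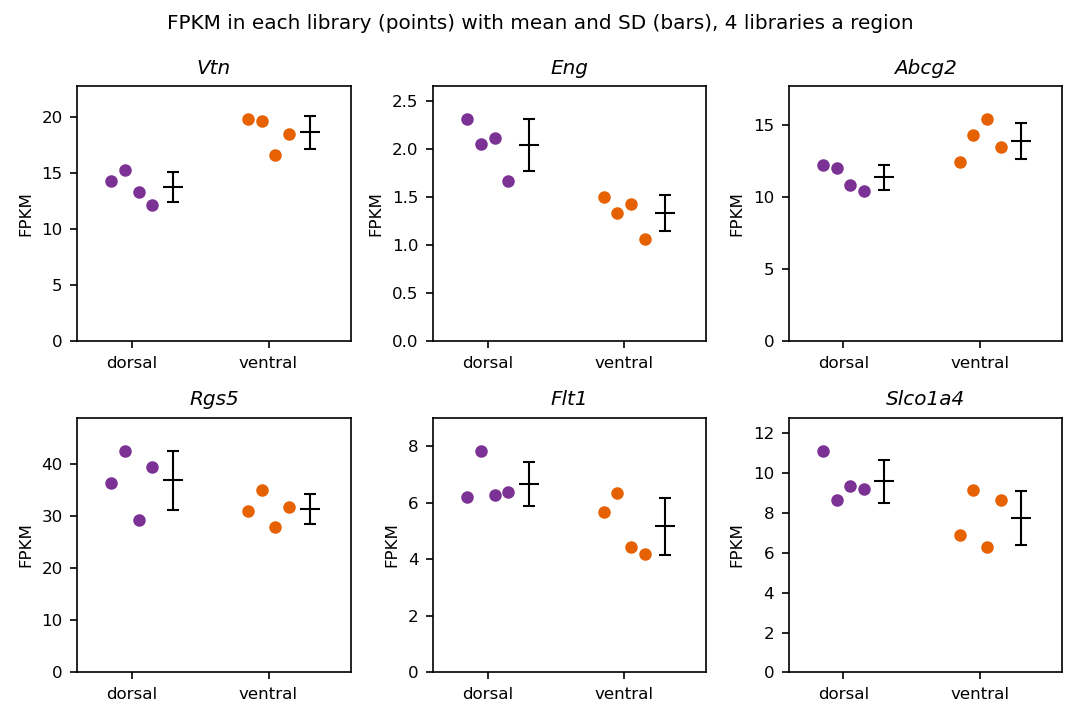
FPKM (y axis, linear from 0) of 6 members in each of 4 dorsal and 4 ventral libraries (points), with mean and SD (bars). The regions do not overlap for Vtn, Eng and Abcg2 and do overlap for Rgs5, Flt1 and Slco1a4.

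Among endothelial genes, 13 of the 15 tested had a log2 ratio below 0, with a median of -0.28, and 0 were called by limma or by edgeR. The angiogenic co-receptor endoglin (Eng; chr2:32646595-32682669), which binds ligands of the TGF-beta family, had the largest ratio. It stood at 2.31, 2.05, 2.11 and 1.66 FPKM in dorsal and 1.501, 1.33, 1.42 and 1.07 in ventral libraries. All 4 ventral libraries lay below all 4 dorsal ones, and the log2 ratio was -0.61 (limma difference -0.38, SE 0.11, adjusted p = 0.0931). In fragments the regions overlapped, at 7.26, 5.27, 5.89 and 4.34 CPM in dorsal and 5.50, 3.85, 4.78 and 3.62 in ventral libraries, with a log2 ratio of -0.37 (edgeR adjusted p = 0.277). The apparent length of Eng differed 1.39-fold between libraries, which 8.3% of the genes above reached, and an exon of Eng overlaps one of Fpgs, so that fragments may have been split between them.

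Esam, an adhesion molecule of endothelial junctions, had the next largest ratio among the tested genes of the class. Its FPKM was 0.858, 1.63, 1.70 and 1.38 in dorsal and 1.25, 0.995, 0.771 and 1.09 in ventral libraries, a log2 ratio of -0.44 (limma adjusted p = 0.493). Dorsal 1 lay below 3 of the ventral libraries, and the gene had 20 to 48 fragments per library, so that its level was poorly resolved.

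The most highly expressed endothelial gene was Ly6a, a membrane-anchored antigen of endothelial and stem cells. It measured 22.8, 23.9, 19.3 and 19.9 FPKM in dorsal and 18.7, 20.2, 13.6 and 18.1 in ventral libraries. Ventral 2 lay within the dorsal range, and the log2 ratio was -0.28. The limma 95% interval on the log2(FPKM + 1) scale was -0.54 to -0.02 (adjusted p = 0.278).

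Receptors for VEGF and angiopoietins were not called by limma. Flt1, the VEGF receptor that limits VEGF signalling, measured 6.21, 7.85, 6.27 and 6.37 FPKM in dorsal and 5.69, 6.34, 4.45 and 4.19 in ventral libraries. Its regions overlapped through ventral 2, and its log2 ratio was -0.37 (limma adjusted p = 0.217, edgeR adjusted p = 0.0993). Tek, the receptor for angiopoietins, is named after its values were seen because DESeq2 called it. Tek measured 2.82, 3.06, 2.29 and 2.14 FPKM in dorsal and 1.91, 2.99, 1.45 and 1.96 in ventral libraries, where ventral 2 stood among the highest dorsal values. Its log2 ratio was -0.31 in FPKM (limma adjusted p = 0.521) and -0.46 in fragments (edgeR adjusted p = 0.068, DESeq2 adjusted p = 0.0455).

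The other tested endothelial genes ranged in log2 ratio from -0.35 for Emcn, a sialomucin of capillary and venous endothelium, to 0.03 for Cav1, a scaffold of caveolae. Pglyrp1 and Pecam1, the latter an adhesion molecule of endothelial contacts, had ratios of -0.34 and -0.30. Cav2, the partner of Cav1, was expressed at 20.02 ± 2.70 FPKM in dorsal and 16.9 ± 2.29 in ventral libraries, a ratio of -0.24, and Ly6c1 and Itm2a had ratios of -0.14 and -0.10. The ratio was -0.13 for Vwf, the clotting protein stored by endothelium, -0.01 for the secreted factor Egfl7 and 0.01 for Cldn5. For Cldn5 the limma 95% interval on the log2(FPKM + 1) scale, which understates changes of low genes, ran from -0.38 to 0.39. At this depth neither a lower nor a higher ventral value of that size on that scale could be told from no difference.

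Of the endothelial genes that were not tested, Kdr, the main signalling VEGF receptor, had means of 0.950 and 0.912 FPKM in dorsal and ventral libraries. The endothelial transcription factors Sox17 and Sox18 had 0.894 and 0.654 and then 0.914 and 0.6998 FPKM. Tie1, an orphan partner of Tek, and Nos3, the endothelial nitric oxide synthase, were marked as having too few alignments, with means between 0.236 and 0.341 FPKM. The log2 ratio was below 0 for each of these but Nos3, at 0.06.

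The mean level of endothelial genes also differed between libraries of the same region. The mean over the 15 tested genes of FPKM relative to the gene's own mean was 1.02, 1.25, 1.01 and 1.04 in dorsal and 0.965, 0.960, 0.801 and 0.944 in ventral libraries. Dorsal 2 was the highest of all 8 libraries for 9 of the 15 genes and ventral 3 the lowest for 7, counts that include the difference between regions. Leaving out 1 library at a time, the median log2 ratio of the class stayed between -0.32 and -0.17. Under the regions named by the headings it was 0.13, so that its sign rests on the assignment of libraries.

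Barrier transporters showed ratios of both signs. Of the 8 tested, 5 had a log2 ratio below 0 and 3 above, with a median of -0.13, and 0 were called by limma or edgeR in either direction. The exception in spread was Abcg2, the breast cancer resistance protein that pumps drugs back into blood, at 12.2, 12.01, 10.8 and 10.4 FPKM in dorsal and 12.4, 14.3, 15.4 and 13.5 in ventral libraries. Ventral 1 lay just above dorsal 1, so that the regions did not overlap, and the log2 ratio was 0.29 (limma difference 0.27, SE 0.08, adjusted p = 0.119). In fragments the ratio was 0.20 (edgeR adjusted p = 0.238), and dorsal 1 lay above ventral 1.

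With Abcg2, Eng and Vtn, 1 tested member had regions that did not overlap with dorsal higher and 2 with ventral higher. Among all tested genes these shares were 6.17% and 4.95%, which is near the share among the 30 members.

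The lowest ratio of the class belonged to an organic anion carrier. Slco1a4, which carries bile acids, steroids and thyroid hormone, is named after its values were seen because DESeq2 called it. It measured 11.1, 8.67, 9.33 and 9.20 FPKM in dorsal and 6.88, 9.13, 6.30 and 8.63 in ventral libraries, where ventral 2 lay above dorsal 2. The log2 ratio was -0.31 in FPKM (limma adjusted p = 0.266) and -0.42 in fragments (edgeR adjusted p = 0.0628, DESeq2 adjusted p = 0.0334). Slco1c1, a thyroxine carrier that astrocytes share, had 7.80 ± 1.25 FPKM in dorsal and 6.55 ± 0.847 in ventral libraries, a ratio of -0.25. Slc2a1, the glucose transporter of the barrier, and Abcb1a, the drug pump P-glycoprotein, had ratios of -0.27 and -0.24. The lipid carrier Mfsd2a had a ratio of -0.02 and the amino acid transporter Slc7a5 one of 0.18.

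Bsg was the best resolved member of the class. It measured 143, 140, 154 and 139 FPKM in dorsal and 147, 137, 151 and 147 in ventral libraries, which overlapped throughout. The log2 ratio was 0.01, and the limma 95% interval on the log2(FPKM + 1) scale ran from -0.12 to 0.15 (adjusted p = 0.952).

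Of the count models on the fragment numbers, DESeq2 called other members than limma did and edgeR called no member. With edgeR on rounded fragment numbers, 0 members were called in either direction, against 3.44% of all genes higher in dorsal and 2.97% higher in ventral MEC, with 8 members lower and 2 higher in ventral libraries at an unadjusted p under 0.05, against 9.52% and 9.02% of all genes. With DESeq2, 2 members, Tek and Slco1a4, were called higher in dorsal and 0 higher in ventral MEC, against 3.57% and 2.97% of all genes. FPKM and fragments gave a ratio of the same sign for 27 of the 30 members, and the log2 ratios differed by over 0.1 for 5 of them, Eng, Vtn, Tek, Cav1 and Slco1a4. The apparent length spread at least 1.2-fold between libraries for 10 of the 30 members, including these 5.

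**Figure D4:**
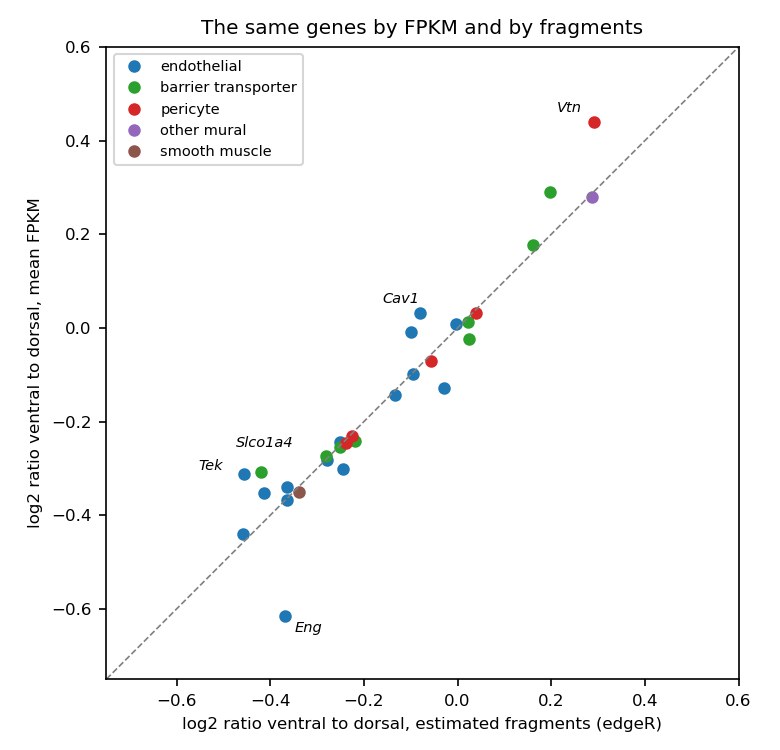
Log2 ratio of ventral to dorsal MEC for the 30 tested members by mean FPKM (y axis) and by estimated fragments with edgeR (x axis), coloured by class, with the line of equality (dashed). Genes that lie over 0.1 from the line are named, and Vtn at 0.44 and Eng at -0.61 in FPKM lie at 0.29 and -0.37 in fragments.

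Genes of contractile and other mural cells were near the limit of what these libraries resolve. Acta2, the smooth muscle actin and the single smooth muscle gene that was tested, measured 3.31, 3.09, 2.63 and 2.36 FPKM in dorsal and 2.65, 3.49, 1.16 and 1.63 in ventral libraries. Ventral 2 was the highest of all 8 libraries and ventral 3 the lowest. The limma difference on the log2(FPKM + 1) scale was -0.30 (95% interval -0.76 to 0.16, adjusted p = 0.546). The log2 ratio of mean FPKM was -0.35, and it was -0.65 without ventral 2 and -0.14 without ventral 3. Tagln and Myh11, a calponin relative and the smooth muscle myosin, were under 1 FPKM on average, with log2 ratios of -0.33 and -0.07. Tagln shares exon sequence with other genes, and its highest value, 1.51 FPKM, was in dorsal 1.

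Anpep, an aminopeptidase of pericytes and of leptomeningeal cells, measured 1.99, 3.01, 2.93 and 2.56 FPKM in dorsal and 1.99, 3.32, 4.33 and 3.10 in ventral libraries. Library 1 of each region was lowest and the ranges overlapped, with a log2 ratio of 0.28 (limma adjusted p = 0.666) that was 0.45 without ventral 1 and 0.10 without ventral 3. Notch3, the Notch receptor of mural cells, was marked as having too few alignments, although it had 37 to 69 fragments per library. It stood at 0.456 ± 0.0645 FPKM in dorsal and 0.423 ± 0.0494 in ventral libraries.

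Further vascular genes were read from 9 lists of pathways and cell functions with 126 genes, of which 86 were tested. By limma, 3 of these were called higher in dorsal (3.49%) and 4 higher in ventral MEC (4.65%). Over all tested genes these shares were 2.15% and 1.45%. With edgeR 4 and 6 were called, against 3.44% and 2.97% of all tested genes. The list of VEGF and angiopoietin signalling held calls in both directions, and 4 of its 7 tested genes had ratios above 0, with a median of 0.04. Angpt1, the ligand that activates the receptor Tek, fell from 14.0 ± 1.71 FPKM in dorsal to 9.42 ± 1.03 in ventral libraries (log2 ratio -0.58, limma adjusted p = 0.0174), while Nrp2, a co-receptor for VEGF and semaphorins that neurons also make, rose from 6.86 ± 0.751 to 9.43 ± 0.601 (log2 ratio 0.46, limma adjusted p = 0.0254).

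Both calls in the list of arterial and venous genes were higher in ventral MEC. Nr2f2, a transcription factor that sets venous identity and is also made by interneurons, rose from 5.43 ± 0.301 to 11.1 ± 0.832 FPKM (log2 ratio 1.04, limma adjusted p = 0.000275). The arterial ligand Efnb2, which neurons make too, rose from 8.95 ± 1.003 to 11.96 ± 0.856 FPKM (log2 ratio 0.42, limma adjusted p = 0.0375). All 4 tested genes of the list had ratios above 0.

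In the other lists, limma called 3 genes. Vcam1, an adhesion molecule for leukocytes, rose from 7.44 ± 0.451 to 9.85 ± 0.412 FPKM (log2 ratio 0.41, limma adjusted p = 0.0162). Of the 15 tested genes in its list of further endothelial genes, 11 had ratios below 0 and 4 above, with a median of -0.17. The transferrin receptor Tfrc, which carries iron across the barrier and into neurons, fell from 36.8 ± 2.38 to 29.7 ± 0.944 FPKM (log2 ratio -0.31, limma adjusted p = 0.0287), but was not called on fragments (edgeR adjusted p = 0.0765). The adhesion molecule Mcam, found on mural and endothelial cells, fell from 2.23 ± 0.200 to 1.21 ± 0.271 FPKM (log2 ratio -0.88, limma adjusted p = 0.0226). Its list of further mural genes had 8 tested genes, 3 with ratios below 0 and 5 above, with a median of 0.21. Genes that edgeR called and limma did not, named after their values were seen, were Ptprb and Cd34, lower in ventral MEC (log2 ratios of fragments -0.35 and -0.45, edgeR adjusted p = 0.0347 and 0.0117), and Mylk and S1pr3, higher in ventral MEC (0.37 and 0.63, edgeR adjusted p = 0.0151 and 0.0317). None of the 8 tested junction genes, 13 Wnt and TGF-beta genes, 8 Notch and PDGF genes or 9 basement membrane genes was called by limma or edgeR.

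Class levels and markers of other cells moved in different ways between regions. The summed FPKM of endothelial genes lay between 100.2 and 124.9 in dorsal and between 83.9 and 104.4 in ventral libraries, which overlapped. For pericyte genes it lay between 47.2 and 63.6 in dorsal and between 49.7 and 59.97 in ventral libraries. For barrier genes, which Bsg dominates, it lay between 208 and 218 and between 205 and 214. Leptomeningeal markers summed to between 109 and 115 FPKM in dorsal and between 161 and 174 in ventral libraries. All 13 tested markers of that list had ratios above 0, with a median of 0.43, and none of the 15 on the list was at 0 in every library. Called higher in ventral MEC were 4 by limma (Dcn, Igf2, Igfbp2 and Aldh1a2) and 7 by edgeR. The ventral excess of Vtn and the ratios of Anpep and Abcg2 run in the same direction, and the part of leptomeningeal tissue in them was not tested.

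Other marker lists were as follows. All 10 oligodendrocyte markers were called higher in dorsal MEC, with a median log2 ratio of -0.87 and sums between 921 and 1221 FPKM in dorsal and between 502 and 666 in ventral libraries, which moves in the same direction as the endothelial ratios and was not tested as a part of them. Microglial and macrophage markers had a median of 0.19, astrocyte markers 0.04 and neuronal markers -0.13, with 0 called in each by limma. With edgeR 1 astrocyte marker, Gfap, was called higher in ventral MEC (edgeR adjusted p = 0.0344), and 0 of the microglial or neuronal markers were called. Blood cell genes summed to between 9.35 and 19.1 FPKM in dorsal and between 10.3 and 16.7 in ventral libraries, which overlapped, and 0 of the 5 tested were called by limma or edgeR. Of the choroid plexus and ependymal markers, 2 were tested and 0 were called by limma or edgeR, and 1 was at 0 in every library.

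**Figure D5:**
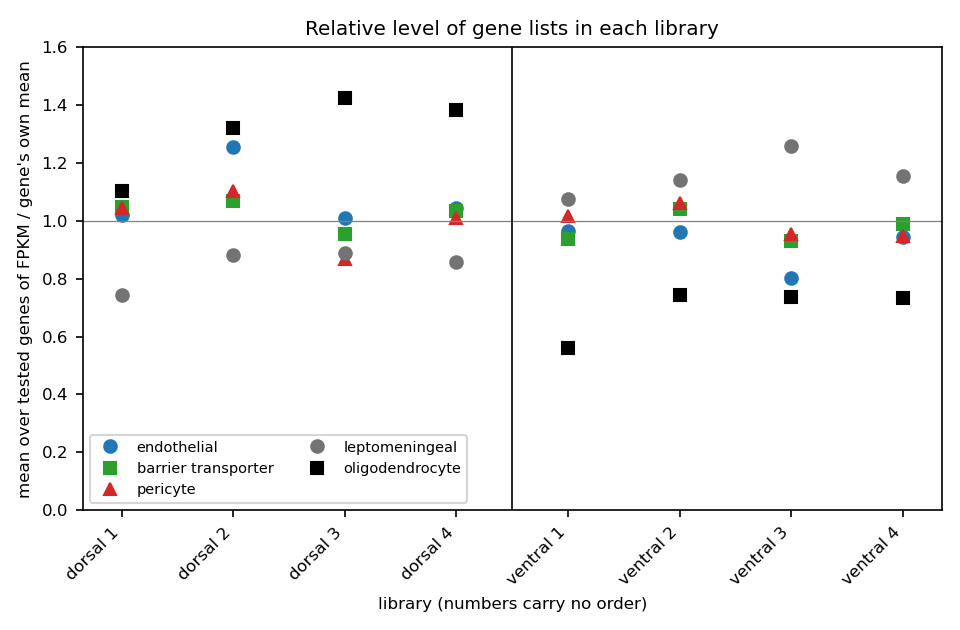
Mean over the tested genes of a list of FPKM relative to each gene's own mean (y axis, linear from 0) in each library (x axis, numbers carry no order). Endothelial genes range from 0.801 in ventral 3 to 1.25 in dorsal 2, and their lowest dorsal value (1.01, dorsal 3) lies above their highest ventral value (0.965, ventral 1). Leptomeningeal and oligodendrocyte markers also separate the regions, in opposite directions, and pericyte and barrier genes overlap between regions. The summed FPKM of endothelial genes, which is not drawn, overlapped between regions.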

How the data were processed

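The authors processed reads with CASAVA 1.8, aligned paired-end fragments with TopHat2 2.0.8 to GRCm38 with Ensembl 73 genes, and ran Cuffdiff, per the labels and methods. The deposited FPKM values are the authors' Cuffdiff estimates, summed over transcripts and scaled between libraries. The authors' deposited estimated counts of fragments (90.6% whole) were rounded and joined to libraries by equal FPKM. The authors' comparison table also holds fold changes and p-values, which were not used. Of the columns with values per library, 2 stayed out of use.

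Genes marked as having enough alignments with a mean FPKM of at least 1 were fitted with limma 3.58.1 (R 4.3.3), which used log2(FPKM + 1), let the variance follow the mean and adjusted p by Benjamini-Hochberg. This understates changes of low genes. A run of the fit on simulated data used a fixed length per gene, so it does not address variation in apparent length between libraries. edgeR 4.0.16 and DESeq2 1.42.0 on fragments, other constants, filters, scalings and variance models, each library left out, and other assignments of regions were alternatives. P-values set the difference between regions against the spread between libraries within a region, where each library is a pool of 3 to 4 mice. In limma that spread is estimated with help from all tested genes. The study took dorsal and ventral tissue from 4 groups of mice, while the fit treats the libraries as unpaired. Nothing states strand, so that overlapping genes may share fragments.

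The members and lists were chosen with earlier results of these data known. Values per library are given for members that were called or did not overlap, the 3 with the largest ratio, and the highest of each class, and listed genes where called. Flt1, Tek and Slco1a4 were added after their values were seen. Gene positions are those of GENCODE M21 (GRCm38) and promoters those of RefSeq. Python 3.11.15, NumPy 2.4.6, pandas 2.3.3 and matplotlib 3.10.9 were used.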

Additional observations from a re-analysis of the deposited data

Results flagged for a closer look

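In 5 groups of 4 libraries, out of 86 groups examined, 1 library stood apart from the other three by Dixon's test, where chance gives about 1 in 20. Flt1 was highest in dorsal 2, at 7.845 FPKM against 6.21 to 6.37 in the other dorsal libraries. Kdr was lowest in ventral 4, at 0.7586 FPKM against 0.9437 to 0.9746 in the other ventral libraries. Tie1 was lowest in dorsal 3, at 0.2554 FPKM against 0.359 to 0.379, on few fragments. Kcnj8 was highest in ventral 2, at 1.706 FPKM against 1.38 to 1.41. Notch3 was lowest in dorsal 2, at 0.36 FPKM against 0.479 to 0.500. No cause was tested.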

How the results depend on the processing

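No paired analysis was possible because the sources used here do not give which group of mice each library comes from. The call of Vtn held under the other constants, filters, scalings and variance models, with adjusted p from 0.0174 to 0.0428, and was lost on fragments, under other assignments of regions and in 5 fits without 1 library.

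With a mean FPKM of at least 5, 0 members with higher dorsal values did not overlap and the pericyte median was 0.10. Unless printed, the share of all genes without overlap is not given for this and the settings below. Such counts are a description only. With libraries scaled to the same total FPKM, the median gene moved from -0.005 to 0.04, 195 genes were called higher in dorsal and 201 in ventral MEC (49.2% of calls dorsal, against 59.8%), 0 members with higher dorsal values did not overlap, and the ratios of Egfl7 and Mfsd2a became 0.0501 and 0.0246. The log2 ratio of summed barrier genes was 0.0364 with that scaling and -0.0771 with each member weighted equally.

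On fragments, edgeR called 471 genes higher in dorsal and 406 in ventral MEC, against 294 and 198 by limma, and DESeq2 called 488 and 406. Among members edgeR called 0 higher in ventral MEC, DESeq2 called 2 higher in dorsal and 0 in ventral MEC, and with either 0 members did not overlap with dorsal higher and 1 with ventral higher. The sign changed for Cav1 (-0.0796), Cldn5 (-0.0043) and Mfsd2a (0.025) with edgeR and for Cav1 (-0.0809) and Mfsd2a (0.0225) with DESeq2.

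Under the regions named by the headings, 1 gene was called higher in dorsal and 0 in ventral MEC by limma, with 721 at an unadjusted p under 0.05, and no member was called (0) or free of overlap in either direction (0 and 0). Median log2 ratios became 0.13 for endothelial, 0.0425 for barrier and 0.0933 for pericyte genes. The sign changed for 20 members. Ratios became 0.15 for Esam, 0.26 for Tek, 0.0654 for Pecam1, -0.0832 for Bsg, 0.26 for Rgs5, 0.33 for Egfl7, 0.36 for Slc2a1, 0.20 for Mfsd2a, 0.13 for Flt1, -0.0199 for Abcg2, 0.0015 for Slco1c1, 0.0835 for Slco1a4, 0.23 for Abcc9, 0.44 for Pglyrp1, 0.0558 for Itm2a, 0.12 for Acta2, -0.0584 for Slc7a5, 0.26 for Abcb1a, 0.47 for Emcn and 0.14 for Ly6a. In the 4 libraries on which headings and means name the same region, limma called 0 genes in either direction (1240 at an unadjusted p under 0.05) and 0 members, 4 members in each direction did not overlap (20.7% and 20.3% of all genes), and the barrier median was 0.0539. Ratios changed sign for Bsg (-0.0698), Rgs5 (0.0242), Egfl7 (0.34), Slc2a1 (0.0857), Mfsd2a (0.18), Pglyrp1 (0.10), Abcb1a (0.0221) and Emcn (0.13).

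Without 1 library, between 157 and 341 genes were called higher in dorsal and between 91 and 191 higher in ventral MEC, the lowest counts being without dorsal 2 and, for ventral calls, also without ventral 1. Between 0 and 1 members were called higher in ventral MEC. Between 1 and 5 members with higher dorsal values did not overlap, 5 of them without ventral 2. With fewer libraries, regions fail to overlap by chance more often. The matching shares of all genes are not given, so that the 5 is not read as a rise. Ratios near 0 changed sign, with ranges of -0.13 to 0.11 for Egfl7, -0.27 to 0.0506 for Vwf, -0.0508 to 0.18 for Cav1, -0.0648 to 0.11 for Kcnj8, -0.18 to 0.21 for Cldn5, -0.006 to 0.0471 for Bsg, -0.0951 to 0.0423 for Mfsd2a and -0.13 to 0.0357 for Pdgfrb. The cause of these shifts was not tested.

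Depth limits the lowest members, with as few as 10 fragments in a library, and the median SE was 0.12 for members against 0.10 for all tested genes.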
